A study of Mus musculus with 8 samples.

Results

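The 6 genes of the ZFP36, Regnase and Roquin families, which encode RNA-binding regulators of mRNA decay, were followed through T cells sorted from the pancreas of diabetic NOD mice. They are Zfp36 (ENSMUSG00000044786), Zfp36l1 (ENSMUSG00000021127), Zfp36l2 (ENSMUSG00000045817), Zc3h12a (ENSMUSG00000042677), Rc3h1 (ENSMUSG00000040423) and Rc3h2 (ENSMUSG00000075376). These 6 were taken by symbol from the 32285 features of each matrix, and every symbol matched 1 feature. All 6 had enough unique molecular identifiers (UMIs, 1 per captured RNA molecule) to be tested in each comparison described here.

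The study sorted CD45+ CD3+ TCR-beta+ cells from the pancreas of spontaneously diabetic female NOD mice aged 3 to 4 months (the treatment protocol allows a slightly wider age range), froze them, and made droplet 3' single-cell libraries. NOD mice develop autoimmune diabetes in which T cells infiltrate the islets. An onset library came from mice with a blood glucose of 250 mg/dl and an active diabetes library from mice above 600 mg/dl, and neither was treated. The remaining 6 libraries were pairs harvested on days 2, 3 and 4. In each pair 1 library came from mice given PPCA, which was nutlin-3 at 50 mg/kg with MK-1775 at 25 mg/kg, and the other from mice given the vehicle of ethanol, Tween 20 and PEG300. Nutlin-3 blocks MDM2, the protein that restrains p53, and MK-1775 inhibits the cell cycle kinase WEE1. Doses were given from day 1 to day 3 and mice were harvested the day after a dose, so the harvest day also counts the doses received. The labels do not say how many mice went into a library, and each arm held 1 library per day.

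The ZFP36 proteins (also called TTP, BRF1 and BRF2) bind AU-rich elements in the tails of short-lived mRNAs and bring in the CCR4-NOT complex, which shortens the poly(A) tail. Regnase-1, encoded by Zc3h12a, is an endonuclease that cuts mRNAs at stem-loops, and Roquin-1 and Roquin-2, encoded by Rc3h1 and Rc3h2, bind related stem-loops and recruit deadenylases. In T cells these proteins are known for holding down cytokine, costimulatory and NF-kB pathway mRNAs. After T cell receptor (TCR) signalling the paracaspase MALT1 cleaves Regnase-1 and the Roquins, and the kinase MAPKAPK2 inhibits ZFP36 by phosphorylation. RNA levels, which are all that was measured here, do not show this control of the proteins.

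The 8 matrices held 80470 barcodes and 419420275 UMIs, and 70145 T cells remained after filtering. Cells with a Cd4 UMI and no Cd8a or Cd8b1 UMI were called CD4-gated, and cells with the reverse were called CD8-gated. A library held 2618 to 4718 CD4-gated cells with 12401282 to 24679956 UMIs, and 1612 to 4425 CD8-gated cells with 10009917 to 22086955 UMIs. From 21.7% to 35.1% of a library's T cells fell outside both gates. Library pairs shared 14 to 41 barcodes, at most 0.431% of the smaller library. Transcripts of Cd3d, Cd3e, Cd3g and the receptor constant regions Trac, Trbc1 and Trbc2 summed to 5360 to 7247 CPM (counts per 1000000 UMIs), the B cell genes Cd79a, Cd79b and Ms4a1 to 4.80 to 8.94 CPM, and the myeloid genes Lyz2 and Csf1r to 0.202 to 1.31 CPM. Cst3, which is also listed as a myeloid gene, stood at 117 to 143 CPM in every library. Pancreas genes (islet hormones and acinar enzymes) summed to 10.8 to 137 CPM, in all 8 libraries.

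The label of female mice was not met by 4 libraries. Vehicle days 2 and 3 and PPCA days 3 and 4 held 186 to 272 CPM of Y-linked transcripts and at most 0.746 CPM of Xist, whereas the other 4 libraries held 417 to 617 CPM of Xist and at most 0.169 CPM of Y-linked transcripts. The PPCA and vehicle libraries therefore matched in this respect on day 3 only, and on days 2 and 4 the mismatch ran in opposite directions. Whether male mice were used or libraries were exchanged was not tested, so every arm and day below is the one on the label. The day 4 libraries stood apart in a list of early-response and dissociation genes (Fos, Jun, Hspa1a and similar), which summed to 4610 CPM with vehicle and 7184 CPM with PPCA, against 952 to 2458 CPM in the other 6 libraries. Comparisons within libraries were also run over the 6 libraries other than day 4 and over each set of 4 libraries, and values are given where a call changed or moved by over 1.5 times.

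Promoter sequence is shown for the 3 members that were higher in cells with TCR-response transcripts, since the transcription factors EGR, SRF, AP-1 and NF-kB act downstream of the TCR. RefSeq promoter entries on GRCm38.p6 were matched for 5 of the 6 members, with none for Zfp36l2. The 250 bases before the transcription start were searched on both strands for GCGGGGGCG (EGR), TGANTCA (AP-1), TGACGTCA (CRE), TTCNNNGAA (GAS, the STAT site), TATAAA, the SRF CArG box, the NF-kB site and the p53 half-site pair. Sequences are written 5' to 3' on the gene's own strand, with matches in capitals.
Zfp36, chr7:28379229-28379478, minus strand: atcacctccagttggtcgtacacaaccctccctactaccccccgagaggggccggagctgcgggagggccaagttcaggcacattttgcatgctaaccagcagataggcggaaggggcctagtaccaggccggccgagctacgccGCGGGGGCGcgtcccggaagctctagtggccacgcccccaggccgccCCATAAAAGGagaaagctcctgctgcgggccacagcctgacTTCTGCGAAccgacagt
Zfp36l1, chr12:80113014-80113263, minus strand: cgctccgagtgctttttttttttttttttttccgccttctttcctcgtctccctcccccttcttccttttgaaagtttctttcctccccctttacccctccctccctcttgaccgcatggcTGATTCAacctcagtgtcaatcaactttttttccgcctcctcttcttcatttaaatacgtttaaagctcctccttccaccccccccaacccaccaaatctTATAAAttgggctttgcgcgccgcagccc
Zc3h12a, chr4:125127882-125128131, minus strand: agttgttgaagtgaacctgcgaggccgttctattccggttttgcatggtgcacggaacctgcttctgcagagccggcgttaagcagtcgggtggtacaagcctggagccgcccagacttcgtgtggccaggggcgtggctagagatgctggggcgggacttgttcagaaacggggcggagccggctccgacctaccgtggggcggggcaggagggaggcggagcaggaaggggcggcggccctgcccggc
The capitals in Zfp36 mark, in order, the EGR letters at bases 105 to 97 before the start, a CArG box at bases 58 to 49 and GAS letters at bases 17 to 9. Of 32851 mouse promoter windows, 2.57% held the EGR letters, 1.47% a CArG box and 7.02% the GAS letters. In Zfp36l1 the capitals mark AP-1 letters at bases 129 to 123, found in 6.75% of windows, and a TATA box at bases 29 to 24, found in 12.4%. No searched motif was found in the Zc3h12a window, and the Rc3h1 window held AP-1 letters at bases 133 to 127. The CRE (1.55% of windows), the NF-kB site (5% of windows) and the p53 half-site pair (0.0639% of windows) were in none of the 5 windows. The windows were 64.8% G and C in Zfp36, 48.4% in Zfp36l1 and 66.4% in Zc3h12a. A match of letters is not a measured binding site.

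All 6 members were detected in both gates of every library. Zfp36, the founding member of its family and an immediate early gene in many cells, was at 128 CPM in CD4-gated cells with active diabetes and 127 CPM at onset. It was at 171, 164 and 207 CPM with vehicle on days 2, 3 and 4, and at 113, 194 and 289 CPM with PPCA. The lowest and the highest of the 8 CD4-gated values were therefore both PPCA libraries. In CD8-gated cells Zfp36 was at 87.1 CPM in active diabetes, 89.3 CPM at onset, 108, 114 and 202 CPM with vehicle, and 65.5, 125 and 204 CPM with PPCA. The day 4 libraries were the 2 highest in each gate.

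Zfp36l1 and Zfp36l2, paralogs of Zfp36 that act in lymphocyte development and quiescence, had the same high days. In CD4-gated cells Zfp36l1 was at 163 CPM in active diabetes, 173 CPM at onset, 197, 159 and 235 CPM with vehicle on days 2, 3 and 4, and 198, 199 and 319.9 CPM with PPCA. In CD8-gated cells it was at 129 CPM, 150.2 CPM, then 161, 127 and 213 CPM with vehicle and 135, 151 and 220.1 CPM with PPCA. Outside day 4 these values spanned a narrow range. Zfp36l2 in CD4-gated cells was at 525 CPM in active diabetes, 646 CPM at onset, 510.4, 499.6 and 888 CPM with vehicle, and 359, 488 and 1505 CPM with PPCA. In CD8-gated cells it was at 400.0 CPM, 608 CPM, then 444, 383 and 653 CPM with vehicle and 339, 381 and 1205 CPM with PPCA. PPCA day 4 stood well above vehicle day 4 for Zfp36l2 in both gates, and onset stood above active diabetes.

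Zc3h12a, the Regnase-1 gene, split the libraries into day 4 and the rest. In CD4-gated cells it was at 14.4 CPM in active diabetes, 16.2 CPM at onset, 19.6, 14.7 and 58.0 CPM with vehicle, and 15.8, 15.97 and 65.3 CPM with PPCA. In CD8-gated cells it was at 13.99 CPM, 15.7 CPM, then 16.9, 14.7 and 52.2 CPM with vehicle and 16.2, 13.1 and 58.4 CPM with PPCA. No library of another day came near the day 4 values.

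Of the Roquin genes, Rc3h1 spanned a narrow range and Rc3h2 was lowest on day 4. In CD4-gated cells Rc3h1 lay between 53.2 CPM (vehicle day 3) and 79.3 CPM (PPCA day 2), and in CD8-gated cells between 49.9 CPM (vehicle day 3) and 72.9 CPM (PPCA day 2). Rc3h2 in CD4-gated cells was lowest on day 4, at 32.7 CPM with vehicle and 33.2 CPM with PPCA, against 42.3 to 60.6 CPM in the other 6 libraries. In CD8-gated cells it was at 36.9 and 32.3 CPM on day 4 against 41.7 to 59.1 CPM elsewhere, so day 4 was below the other days without overlap in both gates.

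**Figure D1:**
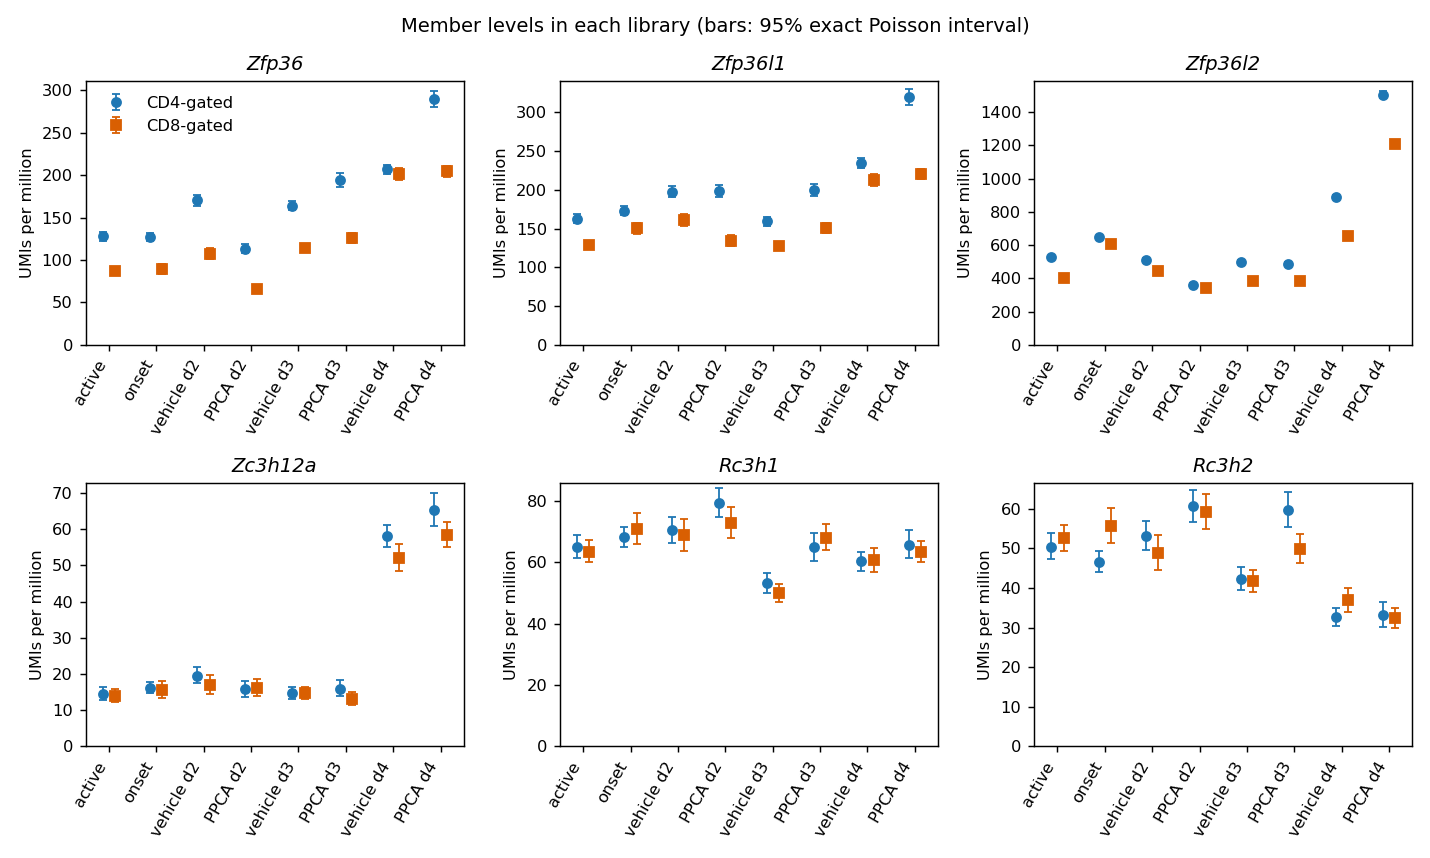
Level of each member (UMIs per 1000000, linear axis from 0) in each of the 8 libraries, with circles for CD4-gated and squares for CD8-gated cells and bars for the 95% exact Poisson interval of the UMI count. Zc3h12a stood at 52.2 to 65.3 CPM in the day 4 libraries and at 13.1 to 19.6 CPM in all others.

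Day 4 was compared with days 2 and 3 over the 6 PPCA and vehicle libraries, with treatment in the model. The ZFP36 family and Regnase-1 rose on day 4 in both gates, and Roquin-2 fell in CD4-gated cells. In CD4-gated cells Zc3h12a rose by 2.06 on the log2 scale (SE 0.12, adjusted p = 0.000262), Zfp36l2 by 1.52 (SE 0.22, adjusted p = 0.00674), Zfp36 by 0.80 (SE 0.19, adjusted p = 0.0351) and Zfp36l1 by 0.71 (SE 0.11, adjusted p = 0.00898) in edgeR's quasi-likelihood test with Benjamini-Hochberg adjustment over 11935 genes. Rc3h2 fell by 0.53 (SE 0.11, adjusted p = 0.0214), and Rc3h1 stood at 0.09 (SE 0.09, adjusted p = 0.577). Thus 4 of 6 members were called higher where 8.55% of all genes tested were, and 1 was called lower where 5.4% were. In CD8-gated cells Zc3h12a rose by 2.03 (SE 0.12, adjusted p = 0.000119), Zfp36l2 by 1.41 (SE 0.23, adjusted p = 0.00737), Zfp36 by 1.17 (SE 0.16, adjusted p = 0.00349) and Zfp36l1 by 0.76 (SE 0.11, adjusted p = 0.00473). There 4 of 6 members were called higher against 9.18% of 11944 genes, and none was called lower against 7.23%. Rc3h2 stood at -0.36 on the log2 scale (SE 0.11, adjusted p = 0.0665) and Rc3h1 at 0.11 (SE 0.10, adjusted p = 0.463) in CD8-gated cells. Of the genes called, 61.3% were higher in CD4-gated and 55.9% in CD8-gated cells, and with library totals as the only scaling 32.5% and 27.6% were. Relative to library totals, scaling raised the day 4 ratios by 0.16 in each gate, and Rc3h1 was at -0.07 and -0.05 on library totals. On library totals Zfp36 lost its call in CD4-gated cells (0.63, adjusted p = 0.0572), leaving 4 members called there, and Rc3h2 was called lower in CD8-gated cells (-0.52, adjusted p = 0.026).

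The day 4 difference rests on 2 libraries. The fit took the 2 libraries of a day as replicates, although libraries of the same day deviated together. Its p-values therefore do not measure the spread between harvest days. The difference also cannot be told apart from the handling of day 4. The early-response list was higher on the same day, in CD4-gated cells at 4914 and 8365 CPM against 1085 to 2594 CPM, and its part in the result was not tested. Cells with 2 or more UMIs over 5 TCR-response genes, in which Zfp36, Zfp36l1 and Zc3h12a are compared further on, were 42.0% and 45.3% of CD4-gated cells on day 4 against 8.76% to 22.7% in the other 6 libraries, and 31.5% to 39.2% of CD8-gated cells against 6.16% to 21.1%. Without the day 2 pair, Zfp36 (log2 fold change 0.51, adjusted p = 0.0676) and Rc3h2 (-0.54, adjusted p = 0.0544) lost their calls in CD4-gated cells, leaving 3 members called. Without the day 3 pair, the same genes lost their calls in CD4-gated cells (Zfp36 1.08, adjusted p = 0.0574, and Rc3h2 -0.52, adjusted p = 0.0928), and Zfp36l2 lost its call in CD8-gated cells (1.49, adjusted p = 0.0573). With sex-linked transcripts as a factor, 5 members were called in each gate, and Rc3h2 in CD8-gated cells was at -0.41 (adjusted p = 0.00379). Calls over all genes rose as well, from 1665 to 2690 of 11935 in CD4-gated and from 1961 to 3532 of 11944 in CD8-gated cells.

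Levels were also read in cells that held no UMI of the TCR-response genes Nr4a1, Nr4a3, Egr1, Egr2 and Egr3, which may still express them. In such CD4-gated cells Zc3h12a was at 50.9 and 67.8 CPM in the day 4 libraries and at 12.7 to 18.0 CPM in the other 6. Zfp36l2 was at 836 and 1510 CPM in such CD4-gated cells on day 4, against 371 to 654 CPM. In such CD8-gated cells Zc3h12a was at 43.5 and 54.0 CPM on day 4, against 11.2 to 15.4 CPM. The groups did not overlap in these values. Zfp36 did overlap in such CD4-gated cells, at 175 and 262 CPM on day 4 against 102 to 183 CPM.

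The partners and targets of these proteins were counted by list. Of 17 tested target mRNAs known from other studies, 11 were called higher and 0 lower on day 4 in CD4-gated cells, with a median log2 fold change of 1.20 against -0.01 over all genes. Il10 (3.82), Ccl3 (2.64) and Ifng (2.18), all cytokine or chemokine mRNAs, had the largest changes there beside Il17a, which passed the filter on low counts only through day 4 and is given no value. For target genes with few UMIs in the lower group, here and below, the fitted size depends on the fit's prior count, and genes that passed the filter only through the higher group had to differ, so the counts and medians of this list are a description. In CD8-gated cells 8 of 14 were called higher and 0 lower (median 0.69, against -0.02 over all genes), led by the coinhibitory receptor gene Ctla4 (2.62) and Ifng (2.39). Of 27 genes of the decay machinery, 5 were called higher and 1 lower in CD4-gated cells (median 0.06), where 8.55% and 5.4% of all genes were. The largest changes were in the deadenylase adaptors Tob1 (1.72), Tob2 (1.35) and Btg2 (1.26) rather than in the core subunits, of which Cnot7 (0.79) was the fourth. In CD8-gated cells 6 were called higher and 2 lower (median 0.04), where 9.18% and 7.23% of all genes were, again led by Tob1 (1.67) and Btg2 (1.14). Among 8 genes that control the proteins, Bcl10 (1.16 in CD4-gated and 1.07 in CD8-gated cells), Malt1 (0.63 and 0.65) and Mapkapk2 (0.54 and 0.53) rose in both gates. Among the other AU-rich and stem-loop binding proteins, 2 of 9 rose and 2 fell in each gate, Hnrnpd (0.85 and 0.79) and Arid5a (0.69 and 0.43) up and the Regnase paralog Zc3h12d (-0.61 and -0.59) and Tia1 (-0.43 and -0.41) down.

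**Figure D2:**
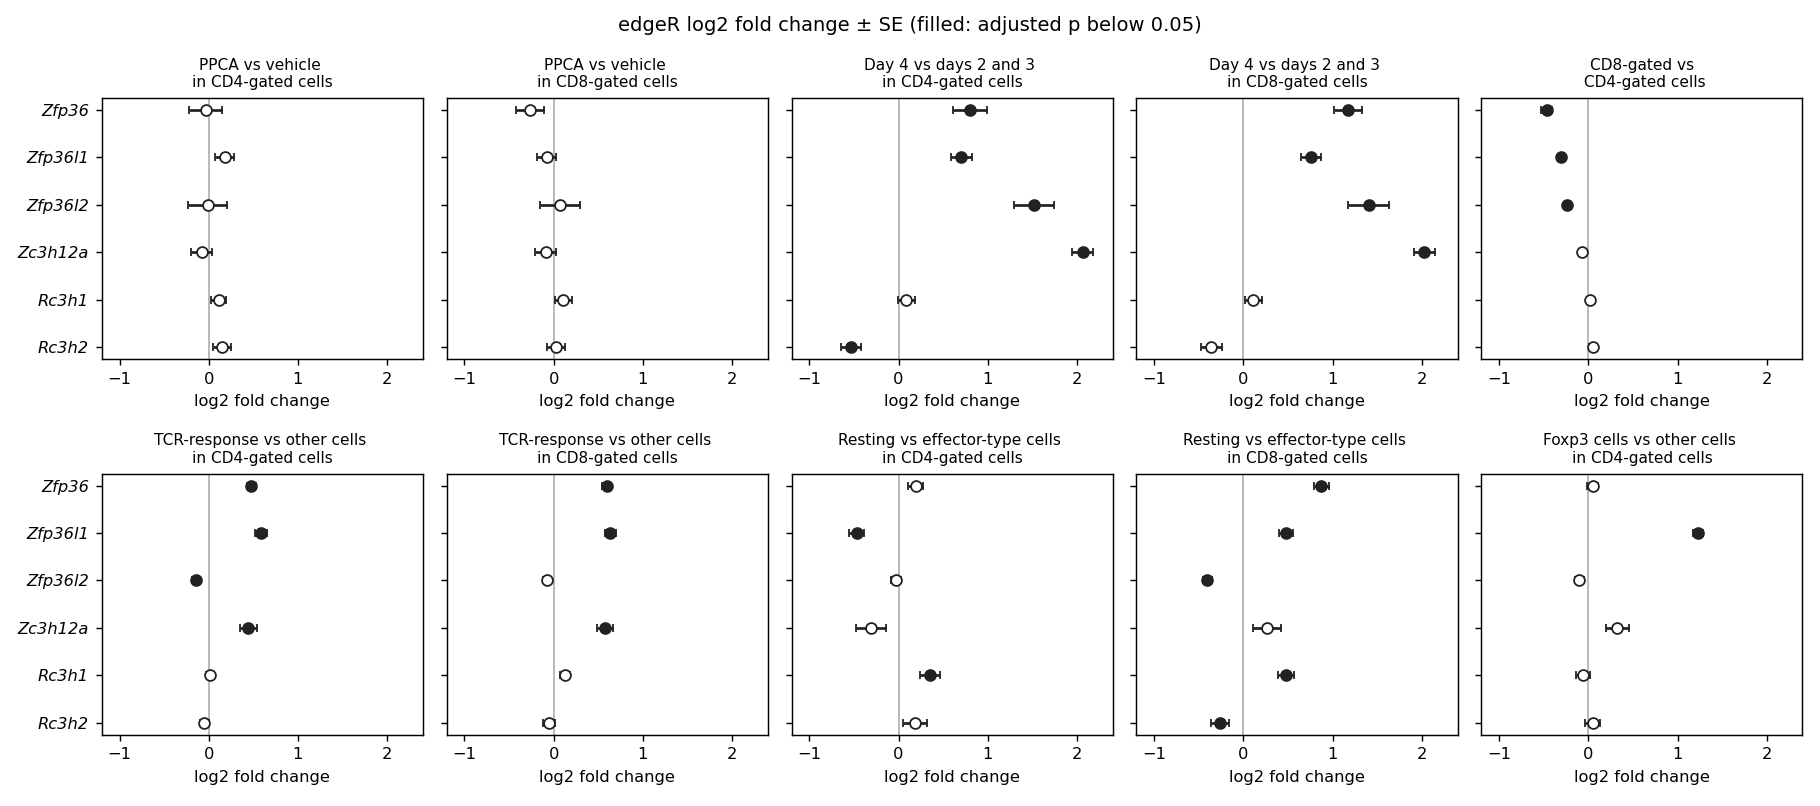
Log2 fold change of each member in 10 comparisons (points with SE bars from edgeR, filled where the adjusted p was below 0.05, horizontal axes in log2 units). The PPCA panels hold no filled point, while on day 4 the ZFP36 family and Zc3h12a lie between 0.71 and 2.06.

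The ZFP36 family was lower in CD8-gated than in CD4-gated cells of the same library, and Regnase-1 and the Roquins were not called. The early-response list was also lower in the CD8-gated cells of 8 of 8 libraries, with library medians of 1468 CPM against 2558 CPM, and the B cell list was higher in 8 of 8, at 9.36 to 17.9 CPM against 1.77 to 2.79 CPM. Their part in the result was not tested. Over 8 libraries with library as a block, Zfp36 was lower at -0.47 on the log2 scale (SE 0.06, adjusted p = 6.54e-06), Zfp36l1 at -0.31 (SE 0.04, adjusted p = 1.08e-05) and Zfp36l2 at -0.24 (SE 0.03, adjusted p = 3.28e-05) in edgeR's test. Zc3h12a had -0.07 (SE 0.04, adjusted p = 0.179), Rc3h1 0.02 (SE 0.03, adjusted p = 0.62) and Rc3h2 0.05 (SE 0.04, adjusted p = 0.391). So 3 of 6 members were called lower where 22.2% of 12624 genes were, and 0 were called higher where 23.1% were. In plain CPM, Zfp36, Zfp36l1 and Zfp36l2 were each lower in CD8-gated cells in 8 of 8 libraries. After scaling, Zfp36 was lower in 7 of 8, with a log2 ratio of 0.003 in vehicle day 4 and -0.77 in PPCA day 2. Of the genes called 50.9% were higher, and 37.7% with library totals as the only scaling, where Zc3h12a was also called lower (-0.11, adjusted p = 0.0338). The same 3 members were called in the 4 libraries with Xist RNA, in the 4 with Y-linked RNA and in the 6 other than day 4.

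Target mRNAs differed between the gates in a mixed way, with 12 of 17 lower and 5 higher in CD8-gated cells. Il17a (-3.79), Il10 (-2.98), Ier3 (3.44) and Ccl3 (3.35) had the largest log2 fold changes. Of the decay machinery 9 of 27 were lower and 3 higher, where 22.2% and 23.1% of all genes were (median -0.03, against 0.0004 over all genes). Its largest changes were in Btg2 (-0.45) and Tob2 (-0.25). The genes that control the proteins included Mapk14 (-0.22) and Mapkapk2 (-0.13), which were lower, and Irak1 (0.12), which was higher, and of the other binding proteins N4bp1 (0.25) and Arid5a (0.17) were higher and Elavl1 (-0.11) and Tia1 (-0.11) lower.

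Cells were then divided within each library by transcripts that follow TCR signalling. TCR-response cells held 2 or more UMIs over Nr4a1, Nr4a3, Egr1, Egr2 and Egr3, genes switched on rapidly by receptor engagement, and were set against cells with 0. This is a range and not a cell type: cells with exactly 1 such UMI, left out of both sides, were 10.88% to 27.25% of CD4-gated and 9.88% to 28.7% of CD8-gated cells. TCR-response cells numbered 277 to 2069 per library in the CD4 gate and 149 to 1393 in the CD8 gate. They were deeper, with library medians of 4108 to 6654 UMIs against 3605 to 6090 in CD4-gated cells.

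Zfp36 and Zfp36l1 were higher in TCR-response cells of both gates. Zc3h12a was also called higher in both, but not once each cell was thinned to 2000 UMIs (0.30, adjusted p = 0.539 in CD4-gated and 0.34, adjusted p = 0.508 in CD8-gated cells). Thinned cells were gated and classed again, so depth, class and cell number changed together. In active diabetes TCR-response cells went from 410 to 102 in the CD4 gate and from 338 to 92 in the CD8 gate. The lost call therefore cannot be put down to depth alone. In CD4-gated cells Zfp36l1 had a lowest, median and highest library value of 217, 261 and 384 CPM in TCR-response cells and 139, 175 and 277 CPM in cells with 0. Its log2 fold change was 0.58 (SE 0.07, adjusted p = 9.54e-06), and it was higher in 8 of 8 libraries. Zfp36 stood at 157, 211 and 319 CPM against 102, 149 and 262 CPM, a log2 difference of 0.48 (SE 0.05, adjusted p = 6.47e-06), also in 8 of 8. Zc3h12a stood at 21.5, 25.4 and 66.5 CPM against 12.7, 14.03 and 67.8 CPM, a log2 difference of 0.45 (SE 0.09, adjusted p = 0.00417). It was higher in 7 of 8 libraries, and PPCA day 4 had a log2 ratio of -0.04. In the 6 libraries other than day 4 the Zc3h12a difference was 0.69 (adjusted p = 7.943e-06). The ranges overlapped for each gene, and the differences were within libraries.

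Zfp36l2 differed in direction from its paralogs in CD4-gated cells, though no test compared the genes. It was lower in TCR-response CD4-gated cells by -0.14 (SE 0.04, adjusted p = 0.0257), in 7 of 8 libraries. In CD8-gated cells it had -0.08 (SE 0.04, adjusted p = 0.38) and was not called. There it was called in the 4 libraries with Xist RNA (-0.22, adjusted p = 0.00998) and turned to 0.06 in the 4 with Y-linked RNA. Its call in CD4-gated cells was lost in limma-voom, with library totals as the only scaling, with a threshold of 1 UMI, and when any of the active, onset, vehicle day 3 or PPCA day 3 libraries was left out. It was also lost without the library block, in the 4 libraries with Xist RNA (-0.17, adjusted p = 0.214) and in the 4 with Y-linked RNA (-0.12, adjusted p = 0.107), and its adjusted p reached 0.9998 over all alternatives. Rc3h1 had log2 fold changes of 0.01 and 0.13 and Rc3h2 of -0.05 and -0.06 in the CD4 and CD8 gates, none called.

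In CD8-gated cells Zfp36l1 (0.64, SE 0.06, adjusted p = 4.36e-08), Zfp36 (0.59, SE 0.05, adjusted p = 6.99e-10) and Zc3h12a (0.58, SE 0.09, adjusted p = 0.000117) were each higher in 8 of 8 libraries. Zfp36l1 was at 177, 220.4 and 307 CPM (lowest, median and highest) in the TCR-response cells and at 113, 137 and 190.5 CPM in the others. Members called higher were 3 of 6 in each gate, where 4.44% of 11204 genes in CD4-gated and 3.11% of 11214 genes in CD8-gated cells were called higher. Members called lower were 1 and 0, where 2.97% and 1.52% of genes were. Of the genes called, 60.2% and 67.6% were higher, against 78.9% and 84.2% with library totals as the only scaling. The difference between the gates in these changes, tested by an exact sign-flip test over the 8 libraries, passed for none of the 6 (two-sided, adjusted p = 0.141 to 0.625). After the same thinning Zfp36 (0.77 in CD4-gated and 0.92 in CD8-gated cells) and Zfp36l1 (0.63 and 0.85) kept their calls. In the 4 libraries with Y-linked RNA the Zc3h12a log2 fold change in CD4-gated cells was 0.35 (adjusted p = 0.207).

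The early-response list was also higher in TCR-response cells, with library medians of 2831 CPM against 2343 CPM in CD4-gated and 1872 CPM against 1295 CPM in CD8-gated cells, and its part was not tested. Targets were called higher for 12 of 17 in CD4-gated cells (median log2 fold change 0.86) and 10 of 15 in CD8-gated cells (median 0.64), with 0 lower. Ccl3 (2.32), Irf4 (2.09), Il2 (1.93) and Nfkbid (1.83) led in CD4-gated cells, and Irf4 (1.81), Nfkbid (1.55), Tnfrsf4 (1.43) and Il2ra (1.38) in CD8-gated cells. These include a chemokine, the transcription factor IRF4, an inhibitor of NF-kB and 2 receptors of activated T cells. Mapkapk2 (0.43 and 0.31), Malt1 (0.33 and 0.21) and Bcl10 (0.21 and 0.18) were higher in both gates. Of the decay machinery 3 of 27 were higher in each gate and 0 lower, where 4.44% and 3.11% of all genes were higher, with Tob2 (0.32 and 0.39) and Btg2 (0.13 and 0.23) in both. Of the other binding proteins Zc3h12d (0.28) was called in CD4-gated cells and none in CD8-gated cells.

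Resting cells were set against effector-type cells in each gate. Resting cells held 2 or more UMIs over a list of homing and quiescence genes of naive and memory cells, which includes Ccr7, Lef1 and Klf2, with 0 over Ccl5, Nkg7, Cxcr3, Cxcr6 and S100a4, and effector-type cells held 2 or more over the second list with 0 over the first list other than Klf2. Both are ranges of UMI counts. Effector-type cells were few in the CD4 gate, 36 to 188 per library against 2108 to 3954 resting cells, and numbered 163 to 758 against 141 to 791 in the CD8 gate. The myeloid list was lower in the resting cells of 8 of 8 libraries, at 99.8 to 129 CPM against 131 to 266 CPM in the CD4 gate and 94.4 to 127 CPM against 155 to 239 CPM in the CD8 gate. Without Cst3 it summed to at most 2.98 CPM in any of these classes. The B cell list was higher in resting CD8-gated cells of 8 of 8 libraries, at 5.61 to 18.3 CPM against 0 to 5.16 CPM. The part of these lists in the results was not tested. Scaling mattered in this comparison: the trimmed mean of M-values (TMM) used in the fits raised the log2 ratios by 0.32 in CD4-gated and 0.21 in CD8-gated cells relative to library totals. The log2 fold changes below are TMM-scaled and include that shift, and the CPM do not.

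Zfp36 was higher and Zfp36l2 lower in resting CD8-gated cells. In CD8-gated cells Zfp36 stood at 76.7, 147 and 244 CPM (lowest, median and highest library) in resting and 45.8, 93.5 and 160.0 CPM in effector-type cells, and was higher in the resting cells of 8 of 8 libraries (log2 fold change 0.87, SE 0.08, adjusted p = 1.02e-10). Zfp36l2 went the other way, at 299, 468 and 1090.5 CPM in resting and 487, 688 and 1782 CPM in effector-type cells, lower in 8 of 8 (-0.41, SE 0.05, adjusted p = 3.67e-08). Zfp36l1 (0.48, SE 0.08, adjusted p = 5.79e-06) and Rc3h1 (0.47, SE 0.09, adjusted p = 3.71e-05) were higher in resting cells, and these 4 genes were also called with library totals as the only scaling. Rc3h2 was lower (-0.26, SE 0.11, adjusted p = 0.0405), a call lost in DESeq2, with the gate rule alone, after thinning, without the library block, in the 4 libraries with Y-linked RNA (-0.14) and without any of the active, onset, PPCA day 2 or PPCA day 3 libraries (adjusted p up to 0.529 over all alternatives). In the 6 libraries other than day 4 it was at -0.42 (adjusted p = 0.004). Zc3h12a had 0.26 (SE 0.16, adjusted p = 0.18), and -0.11 (adjusted p = 0.7498) in the 6 libraries other than day 4. Of 9090 genes, 22.3% were called higher and 22.9% lower, against 3 and 2 of 6 members. With library totals as the only scaling the higher share of the calls went from 49.3% to 24.5%.

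In CD4-gated cells Zfp36l1 was lower in resting cells in 8 of 8 libraries, at 139, 171 and 285 CPM against 205, 339.5 and 413 CPM in effector-type cells (-0.47, SE 0.08, adjusted p = 5.86e-07). Its direction was thus opposite to that in the CD8 gate. There Zfp36l1 was higher in resting cells in 8 of 8 libraries after scaling (mean log2 ratio 0.49). In plain CPM it was higher in 6 of 8 (mean 0.28, lowest -0.03). Foxp3 was also higher in the CD4-gated effector-type cells, at 34.5 to 145 CPM against 5.40 to 19.2 CPM in resting cells. In the CD8 gate Foxp3 was at 3.44 to 16.7 CPM (median 12.3) in resting and 0.862 to 7.91 CPM (median 3.27) in effector-type cells, so its median lay on the same side as Zfp36l1 in each gate. Its part in the Zfp36l1 results was not tested. Rc3h1 was higher in resting CD4-gated cells (0.35, SE 0.11, adjusted p = 0.0117), but with library totals as the only scaling its log2 fold change was 0.03 (adjusted p = 0.851), and it also lost its call after thinning (0.17, adjusted p = 0.574), in DESeq2, in the 4 libraries with Xist RNA (0.35, adjusted p = 0.122), in the 4 with Y-linked RNA (0.34, adjusted p = 0.15) and in the 6 libraries other than day 4 (0.33, adjusted p = 0.0528). Zfp36 had 0.19 (SE 0.08, adjusted p = 0.0728), which reversed to -0.13 with library totals. It was called higher in 6 of 21 alternatives (adjusted p from 0.0219), namely with no low-count filter, with no doublet removal, without PPCA day 2, vehicle day 3 or PPCA day 3, and in the 4 libraries with Xist RNA (0.37). Zfp36l2 (-0.03), Zc3h12a (-0.31) and Rc3h2 (0.19) were not called, although Zfp36l2 (-0.35, adjusted p = 5.24e-08) and Zc3h12a (-0.64, adjusted p = 0.00132) were with library totals. Zc3h12a was also called without PPCA day 4 and in the 6 libraries other than day 4 (-0.72, adjusted p = 0.00692), and after thinning it was at 0.43 without a call. Of 11837 genes, 17% were called higher and 14.8% lower, against 1 member each. With library totals as the only scaling the higher share of the calls went from 53.4% to 18.4%.

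The gates were compared directly by the CD8-gated minus the CD4-gated log2 ratio of resting to effector-type cells in each library, using a sign-flip test over 8 libraries (exact, two-sided) that was added after the data were seen. The mean difference was 0.94 for Zfp36l1 (SD 0.64, n = 8, higher in 8 of 8), 0.64 for Zfp36 (SD 0.36, higher in 8 of 8) and -0.37 for Zfp36l2 (SD 0.25, lower in 8 of 8). Each had an exact p of 0.00781, the smallest that 8 libraries allow, and an adjusted p over the 6 members of 0.0156. This test takes the libraries as independent, although those of a day deviated together. With the 2 libraries of a day averaged as 1 unit, 5 units remained, and each of these 3 genes had the same sign in all 5 and an exact p of 0.0625, the smallest that 5 units allow. For Zc3h12a (0.48, exact adjusted p = 0.131), Rc3h1 (0.10, exact adjusted p = 0.203) and Rc3h2 (-0.46, exact adjusted p = 0.0703) the difference did not pass. On library totals the Zfp36l1, Zfp36 and Zfp36l2 differences were 1.06, 0.76 and -0.25, and in the 6 libraries other than day 4 they were 1.01, 0.60 and -0.27.

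**Figure D3:**
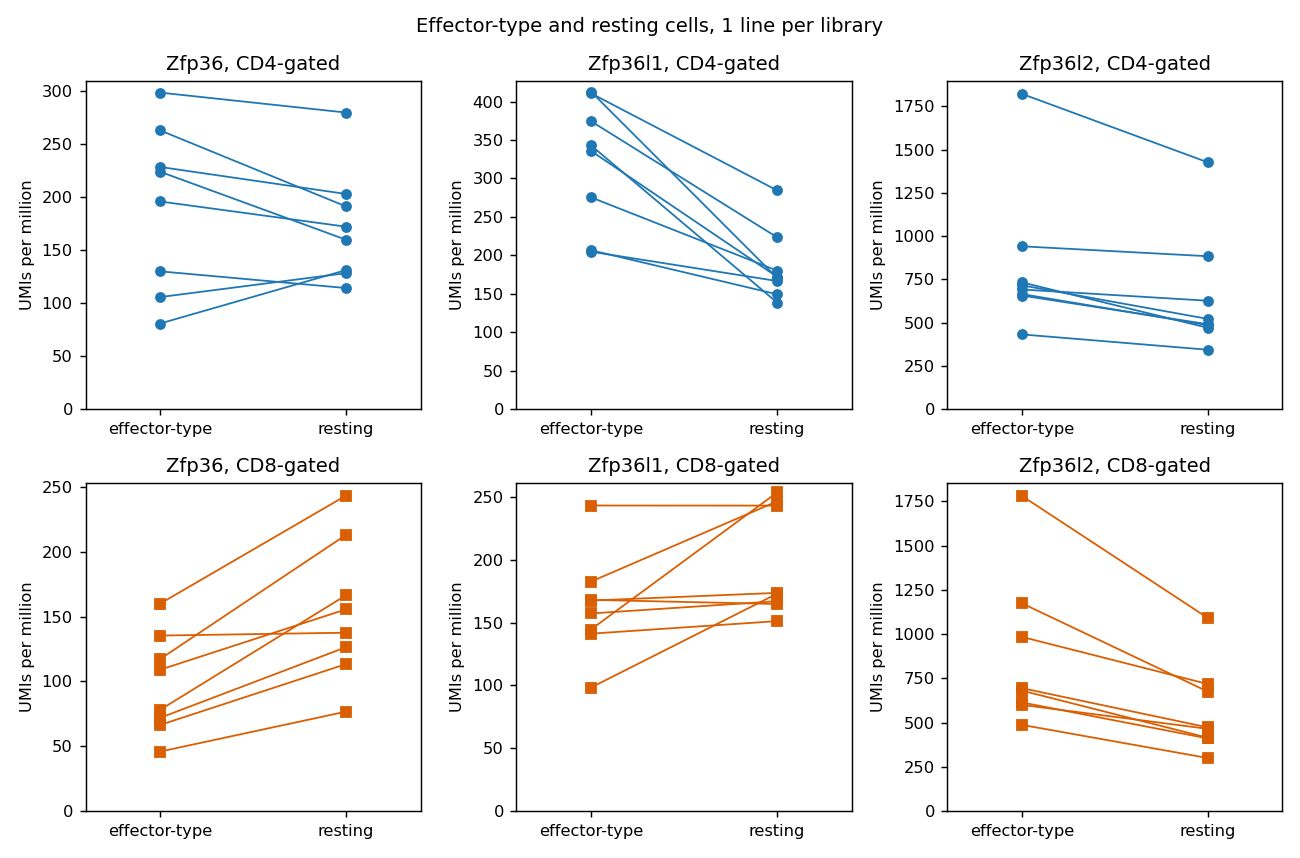
Levels of Zfp36, Zfp36l1 and Zfp36l2 (UMIs per 1000000, linear axes from 0) in effector-type and resting cells, CD4-gated in the upper row and CD8-gated in the lower row, with 1 line per library. Zfp36l1 falls from effector-type to resting cells along all 8 lines in the CD4 gate, while Zfp36 rises along all 8 lines in the CD8 gate.

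Targets were lower in resting cells of the CD4 gate for 14 of 17, with a median log2 fold change of -3.01, against 0.06 over all genes. Ccl3 (-6.64), Il10 (-6.63), Il17a (-6.02) and Ifng (-5.31) led. In the CD8 gate 7 of 13 were lower and 4 higher (median -1.02), with Ccl3 (-8.44), Ifng (-6.81), Ier3 (-3.57) and Tnf (-2.37) first. Of the other binding proteins 0 of 10 were called higher and 3 lower in the CD4 gate, where 17% and 14.8% of all genes were, and 1 of 8 higher and 2 lower in the CD8 gate, where 22.3% and 22.9% were. N4bp1, which shares the Regnase nuclease domain, was lower in resting cells of both gates (-0.73 and -0.66), Arid5a was lower (-0.50) and Tia1 higher (0.29) in the CD8 gate. Of 8 genes that control the proteins 1 was called higher and 2 lower in the CD4 gate, and 0 and 2 in the CD8 gate, those lower being Malt1 (-0.96 and -0.48) and Mapkapk2 (-0.70 and -0.48). Of the decay machinery 5 of 27 were higher and 0 lower in the CD4 gate, where 17% and 14.8% of all genes were, and 4 higher and 2 lower in the CD8 gate, where 22.3% and 22.9% were. The share called higher was near that of all genes in the CD4 gate and the shares in the CD8 gate were below it. The decapping enzyme gene Dcp2 (0.62 and 0.72) was first in both.

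Zfp36l1 was the member that marked cells with Foxp3, the transcription factor of regulatory T cells. Foxp3 cells (1 or more Foxp3 UMIs, 100 to 200 per library) were set against the other CD4-gated cells, and Foxp3 itself stood at 8.27 to 30.4 CPM in CD4-gated and 2.49 to 7.01 CPM in CD8-gated cells. A cell without a Foxp3 UMI may still express the gene. Other lists were higher in Foxp3 cells in 8 of 8 libraries: the B cell list at 4.25 to 10.7 CPM against 1.52 to 2.48 CPM, the myeloid list at a median of 179 CPM against 119.9 CPM, and the early-response list at a median of 2800.3 CPM against 2548 CPM. Without Cst3 the myeloid list had a median of 0 CPM in Foxp3 cells, and the part of these lists in the result was not tested. Zfp36l1 was at 380.1, 490.1 and 856 CPM (lowest, median and highest library) in Foxp3 cells and at 142, 180.4 and 299 CPM in the rest, so that the groups did not overlap. Its log2 fold change was 1.23 (SE 0.05, adjusted p = 2.78e-25), higher in 8 of 8 libraries with per-library ratios from 1.00 (onset) to 1.48 (PPCA day 3). Over all 21 alternatives the value lay between 1.115 (the 4 libraries with Xist RNA) and 1.49 (library totals alone), with an adjusted p of at most 2.075e-05.

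The other 5 members were not called in Foxp3 cells. Zc3h12a had the next largest value, 0.32 (SE 0.13, adjusted p = 0.0517), and was called in 11 alternatives, among them the 6 libraries other than day 4 (0.58, adjusted p = 0.00373) and the 4 with Xist RNA (0.52, adjusted p = 0.0227), with only 17 to 26 UMIs in the Foxp3 cells of each library outside day 4. After thinning it was at -0.08. Zfp36 had 0.05, Zfp36l2 -0.11 (called lower in 4 alternatives), Rc3h1 -0.06 and Rc3h2 0.05. TMM lowered the log2 ratios by 0.26 here relative to library totals. With library totals alone 5 members were called, with Zfp36 at 0.31 (adjusted p = 3.56e-05) and Zfp36l2 reversed to 0.15 (adjusted p = 0.00619). Of 12167 genes, 14% were called higher and 16.4% lower, against 1 and 0 of 6 members. The higher share of the calls was 46.1%, and 84.5% with library totals as the only scaling.

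Targets in Foxp3 cells were called higher for 9 of 16 and lower for 3, with a median of 0.45. Il2ra (4.68), Il10 (3.77), Tnfrsf4 (3.44) and Ctla4 (3.37), which regulatory T cells are known to express, led. Of 10 other binding proteins 4 were called higher and 2 lower, and of 8 genes that control the proteins 1 each way. Over all genes 14% were called higher and 16.4% lower. The Regnase paralog Zc3h12d (0.93) and the kinase gene Mapkapk2 (0.88) were higher, and Dcp2 (-0.63) and Arid5a (-0.54) lower. The paralog Zc3h12c passed the filter on low counts here only through the Foxp3 cells, so it had to differ and no value is given for it. It is among the 4, so that count is a description. Of the decay machinery 5 of 27 were lower and 0 higher, where 16.4% and 14% of all genes were, with a median of -0.11 against -0.04 over all genes. The share called lower was near that of all genes.

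**Figure D4:**
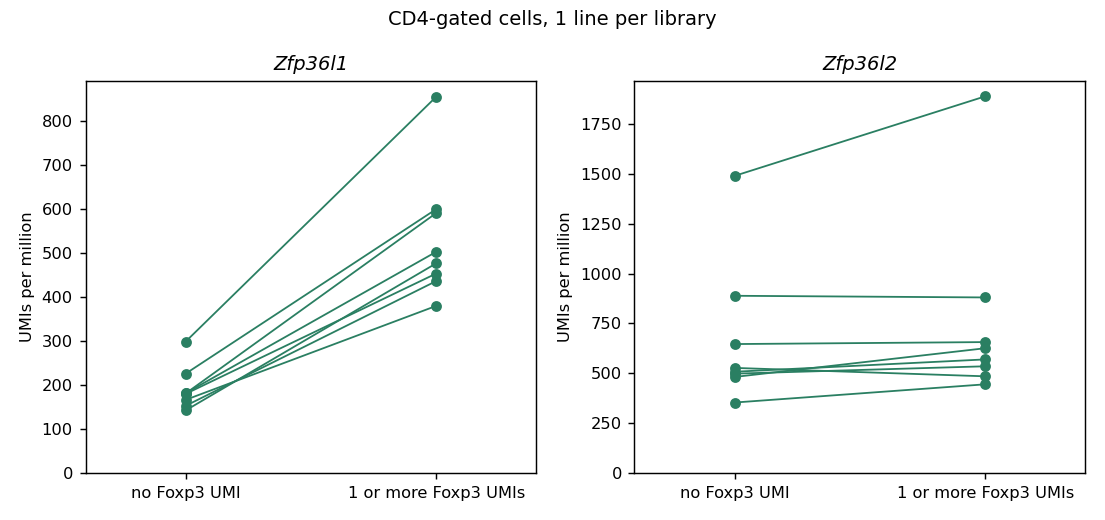
Zfp36l1 and its paralog Zfp36l2 (UMIs per 1000000, linear axes from 0) in CD4-gated cells without and with a Foxp3 UMI, with 1 line per library. All 8 Zfp36l1 lines rise, from 142 to 299 CPM without Foxp3 to 380.1 to 856 CPM with it.

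Treatment was compared over the 3 PPCA and 3 vehicle libraries with day as a block. No member was called in either gate. In CD4-gated cells the log2 fold changes were -0.03 (SE 0.19) for Zfp36, 0.18 (SE 0.11) for Zfp36l1, -0.01 (SE 0.22) for Zfp36l2, -0.08 (SE 0.12) for Zc3h12a, 0.11 (SE 0.09) for Rc3h1 and 0.15 (SE 0.10) for Rc3h2, with adjusted p from 0.789 to 0.992 in edgeR. In CD8-gated cells they were -0.27 (SE 0.15), -0.08 (SE 0.11), 0.07 (SE 0.23), -0.09 (SE 0.12), 0.11 (SE 0.09) and 0.03 (SE 0.10) in the same order, with adjusted p from 0.722 to 0.962. Over all genes 0 of 11935 (0%) were called in CD4-gated and 2 of 11944 (0.0167%) in CD8-gated cells, with 822 and 952 at an unadjusted p under 0.05. The 2 were Ifit3 (2.16) and Rps15 (-0.94), named here because they were so few. DESeq2 and limma-voom called 0 members as well. Of the same genes DESeq2 called 34 in CD4-gated and 39 in CD8-gated cells, and limma-voom 0 and 2. With sex-linked transcripts as a factor 0 members were called, where 76 of 11935 genes in CD4-gated and 258 of 11944 genes in CD8-gated cells were. The Zfp36 value in CD8-gated cells was then -0.27 (adjusted p = 0.148). The gate difference in the change with treatment passed the test for no member, with 1 gene of 12447 called (0.00803%, BC018473 at -0.59). Zfp36l1 (-0.25, SE 0.07) and Zfp36 (-0.23, SE 0.13) had the largest gate differences, followed by Rc3h2 (-0.13), Zfp36l2 (0.09), Zc3h12a (-0.01) and Rc3h1 (3.74e-05), all with adjusted p = 1 in edgeR. The Zfp36l1 difference had an unadjusted p of 0.00309 in edgeR and lay between -0.35 and -0.19 in all 11 alternatives (adjusted p from 0.155).

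The direction differed between days, beyond counting error with and without TMM scaling, for Zfp36l2 in both gates, Zfp36 in CD4-gated cells and Rc3h2 in CD8-gated cells. Zfp36l2 with PPCA was below vehicle on day 2, by a scaled log2 ratio of -0.54 in CD4-gated and -0.46 in CD8-gated cells, and above it on day 4, by 0.715 and 0.87. Zfp36 in CD4-gated cells went from -0.62 on day 2 to 0.07 on day 3 and 0.44 on day 4. In CD8-gated cells Zfp36 was at -0.78, -0.05 and 0.00. Rc3h2 in CD8-gated cells was at 0.21 on day 2 and -0.21 on day 4. Zc3h12a stayed between -0.35 and 0.15 over both gates. In CD8-gated cells Zc3h12a was at -0.34 on day 3 and 0.15 on day 4, each beyond counting error after scaling. Without scaling its day 3 interval included 0. Day 3, the pair with the same sex-linked transcripts, gave -0.21 and -0.19 for Zfp36l2 and 0.15 and 0.06 for Zfp36l1 in the CD4 and CD8 gates. The early-response list also turned over, at 952 CPM with PPCA against 2180 CPM with vehicle on day 2, 1876 against 2165 CPM on day 3 and 7184 against 4610 CPM on day 4. The library with Y-linked RNA was vehicle on day 2 and PPCA on day 4. The part of either in these ratios was not tested. Each of these is 1 library against 1, with no replicate check, and the intervals drawn cover counting error only.

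**Figure D5:**
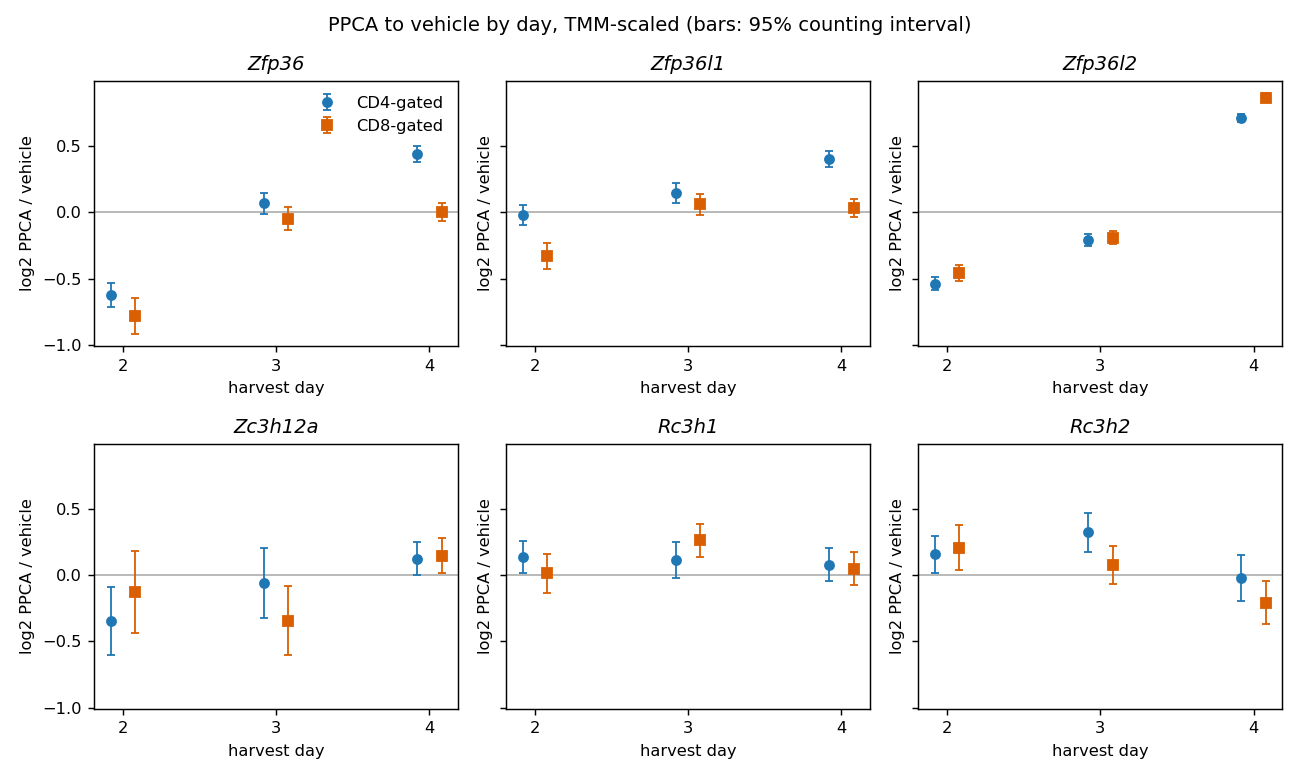
Log2 ratio of PPCA to vehicle on each harvest day, TMM-scaled, with circles for CD4-gated and squares for CD8-gated cells and bars for the 95% interval of counting error. Zfp36l2 runs from -0.54 and -0.46 on day 2 to 0.715 and 0.87 on day 4.

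Active diabetes and onset had 1 library each, so no test was made. Zfp36l2 was lower in active diabetes, by a log2 ratio of -0.30 (95% exact counting interval -0.34 to -0.26) in CD4-gated and -0.605 (-0.65 to -0.56) in CD8-gated cells. The other 5 members lay between -0.22 and 0.11 in both gates. No member was 2-fold apart, as 0.583% of 7199 genes were in CD4-gated and 1.36% of 7208 genes in CD8-gated cells averaging 10 CPM or more. The early-response list was at 1416 CPM in active diabetes and 2458 CPM at onset, and its part was not tested.

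Across the 16 values of 8 libraries and 2 gates, Zfp36l1 and Zfp36 (Pearson r = 0.87) and Zfp36l2 and Zc3h12a (r = 0.86) ran most closely together, and Rc3h2 ran against Zc3h12a (r = -0.84). Points of a library share its depth and handling, and no p was computed. These values turned on the 4 points of day 4: over the other 12 values the same pairs had r = 0.69, 0.28 and 0.28, and the highest r was then that of Rc3h1 and Rc3h2, at 0.81 (0.55 over all 16). Among 7257 genes averaging 10 CPM or more, those most like Zc3h12a were Taf7 (r = 0.99), Spty2d1 (0.99) and Per1 (0.98), and those most like Zfp36l2 included Atf4 (0.97) and Tob1 (0.96). Those most like Zfp36l1 were Epc1 (0.96), Ptbp2 (0.95) and Chd2 (0.93), and like Zfp36 were Gm8369 (0.93), Rnf103 (0.92) and 2810013P06Rik (0.92). Rc3h1 was most like Zc3h13 (0.96), Ep300 (0.96) and Tmem184c (0.95), and Rc3h2 like Trmt1l (0.98), Cnep1r1 (0.97) and Clec2d (0.97). Over the 12 values other than day 4, Taf7, Spty2d1 and Per1 had r of 0.51, 0.68 and 0.55 with Zc3h12a, and the genes named for the other 5 members had r of 0.84 to 0.98.

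The authors' deposited table of cluster markers listed 3 of the 6 members, in 9 entries over 4 of its 7 clusters. For Zfp36l1 the authors' deposited table gave an average log2 fold change of 1.289 in CD4 Treg, 0.50 in CD4 Th0 and 0.48 in CD4 Th17. For Zfp36l2 the authors' deposited table gave 0.88 in CD4 Th17, 0.57 in CD8 TRM TEM and 0.53 in CD4 Treg. For Zfp36 the authors' deposited table gave 0.50 in CD4 Th0, 0.42 in CD4 Treg and 0.41 in CD4 Th17. Zc3h12a, Rc3h1 and Rc3h2 were not in the table.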

How the data were processed

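Droplet 3' libraries of sorted, frozen pancreatic T cells were used as deposited raw UMI counts, which the authors made with Cell Ranger (6.0.0 per the file headers, 6.1.2 with Seurat per the submitters' processing notes). No source used here names the genome build or gene annotation. The authors' deposited table of cluster markers gives log2 fold changes and p-values per cluster, and its columns of cells with a gene detected were not used.

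Barcodes with at least 500 genes and under 10% mitochondrial UMIs were kept, and those with the highest Scrublet scores (scanpy 1.11.5) were removed at 0.8% per 1000 barcodes. T cells needed 2 UMIs over 6 T cell genes and at most 1 over Cd79a, Cd79b, Ms4a1, Lyz2 and Csf1r. Cst3 was left out of that exclusion after its level was seen. Counts were summed per library and gate or class and tested with edgeR 4.0.16 (R 4.3.3; TMM scaling, filterByExpr, quasi-likelihood test, Benjamini-Hochberg adjusted p under 0.05), with day as a block for treatment and library as a block within libraries. DESeq2 1.42.0, limma 3.58.1, other scalings and filters, thinning to 2000 UMIs, left-out libraries, sets split by sex-linked RNA and, added later, the 6 libraries other than day 4 were alternatives. Thinned cells were gated and classed again on the thinned counts. Simulated data were used to test the edgeR fits of treatment in each gate, its gate difference and the CD8 against the CD4 gate. The fits of day 4 and of TCR-response cells were tested so in the CD4 gate only. The other fits were not simulated. Python 3.11.15, numpy 2.4.6 and scipy 1.17.1 did the rest. Replicates here are libraries. The edgeR p-values use a spread between libraries moderated over all genes, and can be smaller than a gene's own spread would give. For Zfp36l1 in resting against effector-type CD4-gated cells the SE was 0.08, while its per-library log2 ratios had an SD of 0.38 (n = 8). Intervals cover counting error only.

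Libraries of the same day deviated together: the correlations of their deviations were 0.17, 0.56 and 0.45 in CD4-gated and 0.20, 0.69 and 0.45 in CD8-gated cells on days 2, 3 and 4, so day paired them. The members and gene lists were chosen with earlier results of these data known. All 6 members are given in each tested comparison. From each list at most 4 called genes were named per comparison, largest change first, and the 3 genes with the highest correlation were named for each member. Some genes that these rules name, or that a list used to class cells holds, are not reported here.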

Additional observations from a re-analysis of the deposited data

Results flagged for a closer look

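The change from effector-type to resting cells differed between the gates for 3 members, by an exact sign-flip test over 8 libraries. The CD8-gated minus CD4-gated difference in log2 ratio was 0.6386 for Zfp36, 0.9416 for Zfp36l1 and -0.3678 for Zfp36l2. All 8 libraries had the same sign for each gene. With the 2 libraries of a day averaged as 1 unit, the exact p was 0.0625 for each, the smallest that 5 units allow.

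The PPCA to vehicle log2 ratio had opposite signs on different days, in intervals of counting error that did not include 0 with and without TMM scaling. For Zfp36 in CD4-gated cells it was -0.6225 on day 2 and 0.4398 on day 4. For Zfp36l2 it was -0.5374 on day 2 and 0.715 on day 4 in CD4-gated cells, and -0.4562 and 0.8676 in CD8-gated cells. For Rc3h2 in CD8-gated cells it was 0.2081 on day 2 and -0.2068 on day 4. Each day held 1 library per arm, so the difference between days was not tested. The early-response list was at 952 CPM with PPCA against 2180 CPM with vehicle on day 2, and at 7184 against 4610 CPM on day 4. Y-linked RNA was in the vehicle library on day 2 and in the PPCA library on day 4. The part of either was not tested.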

How the results depend on the processing

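Of 1134 alternative values over 66 single-gene results, 1007 kept their direction and side of the threshold, 44 lost the call, 32 gained one and 51 changed sign. The cause was not tested in any of these.

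No fit called a member for treatment. Without the replicate block of harvest day the PPCA log2 fold changes in CD4-gated cells were 0.08818 for Zfp36, 0.2696 for Zfp36l2 and 0.01067 for Zc3h12a, and 0.0318 for Zc3h12a in CD8-gated cells, with 0 members called. Leaving out 1 day gave -0.2765 to 0.2616 for Zfp36, -0.375 to 0.261 for Zfp36l2 and -0.205 to 0.04944 for Zc3h12a in CD4-gated cells. In CD8-gated cells it gave -0.1459 to 0.04962 for Zfp36l1, -0.3234 to 0.3423 for Zfp36l2, -0.2409 to 0.02262 for Zc3h12a and -0.06037 to 0.1398 for Rc3h2. The gate difference in treatment ranged from -0.08814 to 0.07843 for Zc3h12a and -0.08803 to 0.05714 for Rc3h1 in the same way. For Rc3h1 it was -0.004127 with DESeq2 size factors, -0.003694 in DESeq2, -0.001196 in limma-voom, -0.003725 with no doublet removal and -0.003003 with the gate rule alone, and for Zc3h12a it was 0.003509 with no low-count filter.

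With library totals alone, chosen after seeing the data, treatment values were 0.0498 (Zfp36) and 0.07255 (Zfp36l2) in CD4-gated and 0.01243 (Zfp36l1) in CD8-gated cells. Rc3h1 was at -0.07202 and -0.05101 on day 4 in the CD4 and CD8 gates, -0.02551 between the gates and 0.1877 in Foxp3 cells. In resting CD4-gated cells Zfp36 was at -0.1338 and Rc3h2 at -0.1292, and Zfp36l2 in Foxp3 cells was at 0.1529. In the 6 libraries other than day 4, also chosen after seeing the data, Rc3h1 was at -0.01645 in TCR-response CD4-gated cells and Zc3h12a at -0.1124 in resting CD8-gated cells.

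Without the library block 0 members were called between the gates and in TCR-response cells of either gate, and 3 in resting CD8-gated cells. On day 4 in CD4-gated cells 3 to 3 members were called without day 2 or day 3. In resting CD4-gated cells 1 member was called in DESeq2, 1 after thinning and 1 in the libraries with Y-linked RNA. In Foxp3 cells 2 were called with DESeq2 size factors, DESeq2, no doublet removal, the libraries with Xist RNA and the 6 libraries other than day 4, 3 with no low-count filter and the gate rule alone, 5 with library totals, and 1 to 2 without 1 library. In TCR-response CD4-gated cells 2 were called in the libraries with Y-linked RNA.

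The other sign changes were near 0 or after thinning. For TCR-response CD4-gated cells Rc3h1 was at -0.0001296 with no low-count filter, -0.008847 with 1 or more UMIs and -0.0137 to 0.03363 without 1 library, and Rc3h2 at 0.01017 with Cst3 in the exclusion. For TCR-response CD8-gated cells Rc3h2 was at 0.06079 after thinning and 0.004067 in the libraries with Y-linked RNA, where Zfp36l2 was at 0.05584 and Rc3h2 between the gates at -0.05806. Zfp36l2 in resting CD4-gated cells was at 0.0005624 with no low-count filter, 0.006144 with the gate rule alone, 0.07074 in the libraries with Xist RNA and -0.06098 to 0.02093 without 1 library. After thinning, Zc3h12a in resting CD4-gated cells was at 0.4279, and in Foxp3 cells Zfp36l2 was at 0.1045, Zc3h12a at -0.08024, Rc3h1 at 0.1144 and Rc3h2 at -0.3036. Rc3h1 in Foxp3 cells was at 0.03746 in the libraries with Xist RNA.

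Counts of all genes called also moved. Over all settings they ran from 632 to 2690 on day 4 in CD4-gated cells (1665 as reported), 503 to 3532 in CD8-gated cells (1961), 28 to 1123 in TCR-response CD4-gated cells (836), 20 to 718 in CD8-gated cells (524), 2019 to 5839 between the gates (5717), 2264 to 4381 and 2697 to 4800 in resting cells (3783 and 4112), 1589 to 4328 in Foxp3 cells (3702), 0 to 147 and 0 to 258 for treatment (0 and 2) and 0 to 54 for its gate difference (1).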
